A study of Mus musculus with 54 samples.

Results

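The 10 genes described here are core and output genes of the mammalian circadian clock: Arntl, Clock, Per1, Per2, Per3, Cry1, Cry2, Nr1d2, Dbp and Tef. They were taken as the rows of the deposited expression table that carry these names, 10 of 55487 rows, and each name matched 1 row. Of the 10, 9 passed the filter on low values (at least 1 TPM in at least 5 samples) and were among the 12742 genes tested. TPM is transcript abundance corrected for length and scaled to the same sum in every library. Cry1 did not reach 1 TPM in any sample and was not tested, and Arntl passed with exactly 5 samples at or above that level.

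RNA had been sequenced from early proximal tubules that stained for SGLT2, the glucose transporter of the first part of the nephron, cut from kidney sections by laser capture. Each sample pooled 70 to 80 tubules, and libraries were made from 0.5 ng of RNA with a DV200 (a measure of RNA fragment length) above 30%. All mice were male, of the DBA strain and 14 weeks old, and all treatments lasted 2 weeks. The table held values for 48 of the 54 samples in the labels, and the other 6 were not analysed here. Diabetic mice carried the Ins2 Akita/+ allele, a mutation of insulin 2 that causes insulin-deficient diabetes, and non-diabetic mice were Ins2+/+. In both, Sglt1 (gene Slc5a1, the second tubular glucose transporter) was either deleted, Sglt1-/-, called knockout below, or intact, Sglt1+/+, called wild type. Dapagliflozin, an SGLT2 inhibitor, was given at 10 mg/kg diet, and semaglutide, a GLP-1 receptor agonist, was injected under the skin at 3 nmol/kg per day in Akita wild-type mice. The Akita mice gave 6 knockout dapagliflozin, 6 knockout vehicle, 5 wild-type semaglutide, 5 wild-type dapagliflozin and 6 wild-type vehicle samples. The non-diabetic mice gave 6 knockout dapagliflozin, 5 knockout vehicle, 4 wild-type dapagliflozin and 5 wild-type vehicle samples. The labels used here give no time of day at which tissue was taken and do not tie samples to animals. A p-value here thus reflects the scatter among these samples only, part of which may be technical, and understates the uncertainty if samples share a mouse.

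In the clock of mammalian cells, ARNTL (also called BMAL1) and CLOCK pair and bind E-boxes in DNA, which raises transcription of the Per and Cry genes, of the nuclear receptors Nr1d1 and Nr1d2, and of Dbp. PER and CRY proteins accumulate, enter the nucleus and block ARNTL and CLOCK, while NR1D1 and NR1D2 repress Arntl through ROR elements, so that Arntl peaks at the opposite time of day from Dbp and the Per genes. DBP, TEF and HLF are related factors that bind D-boxes and pass the rhythm on to many genes, in the kidney among them genes of transport and detoxification. NFIL3 binds the same D-boxes and represses, and NPAS2 can take the place of CLOCK.

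RefSeq promoter sequences (250 bases before to 50 bases after a transcript start, build GRCm38.p6) were found for 9 of the 10 genes, 14 promoters in all. They are shown for the genes on which the results turn, since they show which of the clock's own DNA elements lie next to each start. Both strands were searched for the E-box CACGTG, the D-box TTATGTAA and the ROR element core TAGGTCA or TGGGTCA, motifs that do not overlap each other here, and capitals mark the matches. Per3 lies on chr4:151044616-151044915, minus strand, Dbp on chr7:45704997-45705296, plus strand, and Arntl (its second start) on chr7:113207261-113207560, plus strand. Per1 (its first start) lies on chr11:69098699-69098998 and Tef (its second start) on chr15:81811164-81811463, both plus strand.
Per3: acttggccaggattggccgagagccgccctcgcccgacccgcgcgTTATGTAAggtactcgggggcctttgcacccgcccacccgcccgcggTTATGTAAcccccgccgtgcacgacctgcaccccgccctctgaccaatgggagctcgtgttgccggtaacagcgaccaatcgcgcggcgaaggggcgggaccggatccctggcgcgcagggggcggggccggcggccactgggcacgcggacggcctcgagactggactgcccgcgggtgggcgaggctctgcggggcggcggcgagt
Dbp: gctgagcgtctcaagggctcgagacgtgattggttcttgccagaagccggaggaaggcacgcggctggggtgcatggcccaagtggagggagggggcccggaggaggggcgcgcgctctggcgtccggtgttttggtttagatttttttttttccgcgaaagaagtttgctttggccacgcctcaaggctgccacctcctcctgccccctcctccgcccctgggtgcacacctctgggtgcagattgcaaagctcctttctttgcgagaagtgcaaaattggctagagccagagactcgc
Arntl: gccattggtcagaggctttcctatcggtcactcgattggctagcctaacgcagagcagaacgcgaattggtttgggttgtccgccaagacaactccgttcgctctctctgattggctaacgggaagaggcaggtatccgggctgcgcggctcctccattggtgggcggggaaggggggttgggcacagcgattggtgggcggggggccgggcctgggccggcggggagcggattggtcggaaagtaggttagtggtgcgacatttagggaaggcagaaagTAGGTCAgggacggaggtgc
Per1: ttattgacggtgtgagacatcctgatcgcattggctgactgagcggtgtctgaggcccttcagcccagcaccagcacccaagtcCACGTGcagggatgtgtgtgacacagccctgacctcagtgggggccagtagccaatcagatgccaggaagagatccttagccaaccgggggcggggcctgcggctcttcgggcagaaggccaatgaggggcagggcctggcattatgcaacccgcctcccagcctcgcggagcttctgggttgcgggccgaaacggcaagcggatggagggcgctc
Tef: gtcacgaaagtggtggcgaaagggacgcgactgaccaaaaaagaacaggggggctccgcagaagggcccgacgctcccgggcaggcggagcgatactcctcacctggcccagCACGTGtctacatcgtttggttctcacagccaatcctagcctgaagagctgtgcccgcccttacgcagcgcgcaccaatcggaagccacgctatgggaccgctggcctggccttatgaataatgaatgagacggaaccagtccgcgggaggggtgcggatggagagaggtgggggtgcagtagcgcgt

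The Per3 promoter held 2 D-boxes, 205 and 158 bases before the start. The D-box was found in 0.938% of all 32851 mouse promoters of this length, and no promoter of the other 8 genes with an entry held one; Per2 had no entry and was not searched. The E-box, found in 7.15% of all promoters, lay 166 bases before the first start of Per1, 60 bases before that of Cry1, and 127 and 138 bases before both starts of Tef. The second start of Arntl had 1 ROR core 30 bases after it, a motif found in 6.45% of all promoters. None of the motifs was found in the windows of Dbp, Cry2, Clock and Nr1d2, which says only that these letters are not in these windows.

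The libraries were checked before the results. Slc5a1 did not exceed 0.123 TPM in any of the 23 knockouts, and its range was 0.814 to 4.29 TPM over the 25 wild types. Slc5a2, which encodes SGLT2, lay between 82.5 and 275 TPM, and the 5 early proximal tubule markers summed to 700 to 1685 TPM. Sums of 5 thick ascending limb markers ran from 10.3 to 146 TPM. Between 8465 and 11419 genes reached 1 TPM per library. Nuclear protein-coding genes took 5.98% to 14.1% of the TPM sum, while 1 ribosomal RNA row took 36.8% to 64.4%. Since the sum is fixed, the level of any gene depends on the share left by all other rows. Whether the share of that 1 row followed the protein-coding share was not tested. In 4 libraries under 9000 genes were detected, 2 Akita knockout vehicle and 2 Akita wild-type vehicle samples. TPM keeps no sequencing depth, so counting error could not be given. In such bulk samples, fewer cells of a type and less RNA per cell cannot be told apart.

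Of the activating pair, Clock was measured in every library and Arntl was close to the limit of detection. Clock (ENSMUSG00000029238.11, chromosome 5, 76209868 to 76304792, minus strand, GRCm38) had a median of 5.44 TPM over the 48 samples, with 2.65 TPM in the lowest and 10.7 TPM in the highest. Its mean ± SD was 5.30 ± 1.74 TPM in Akita knockout dapagliflozin, 4.81 ± 1.74 TPM in Akita knockout vehicle, 4.78 ± 1.43 TPM in Akita wild-type semaglutide, 6.54 ± 1.47 TPM in Akita wild-type dapagliflozin and 5.24 ± 1.97 TPM in Akita wild-type vehicle samples. In the non-diabetic groups Clock averaged 7.18 ± 1.91 TPM with dapagliflozin and 6.82 ± 2.45 TPM with vehicle in knockouts, and 4.56 ± 0.793 TPM with dapagliflozin and 5.19 ± 1.33 TPM with vehicle in wild type. The groups of each comparison made below overlapped, and the highest group mean of Clock was 1.57 times the lowest.

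Arntl (ENSMUSG00000055116.8, chromosome 7, 113207465 to 113314126, plus strand) had a median of 0.413 TPM and was listed at 0 in 5 samples. In Akita wild-type vehicle samples it lay at 4.21, 0, 0.427, 1.04, 0.584 and 0.552 TPM, and sample 1 of this group was the highest of all 48. In Akita knockout dapagliflozin samples it lay at 0, 0.0394, 0, 0.346, 0.0411 and 0.388 TPM, the lowest group mean. The other 7 groups averaged between 0.313 TPM in non-diabetic wild-type dapagliflozin and 0.758 TPM in non-diabetic knockout vehicle samples. The highest group mean was 8.37 times the lowest, and the group with the highest mean held the sample at 4.21 TPM and had a median of 0.568 TPM.

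**Figure D1:**
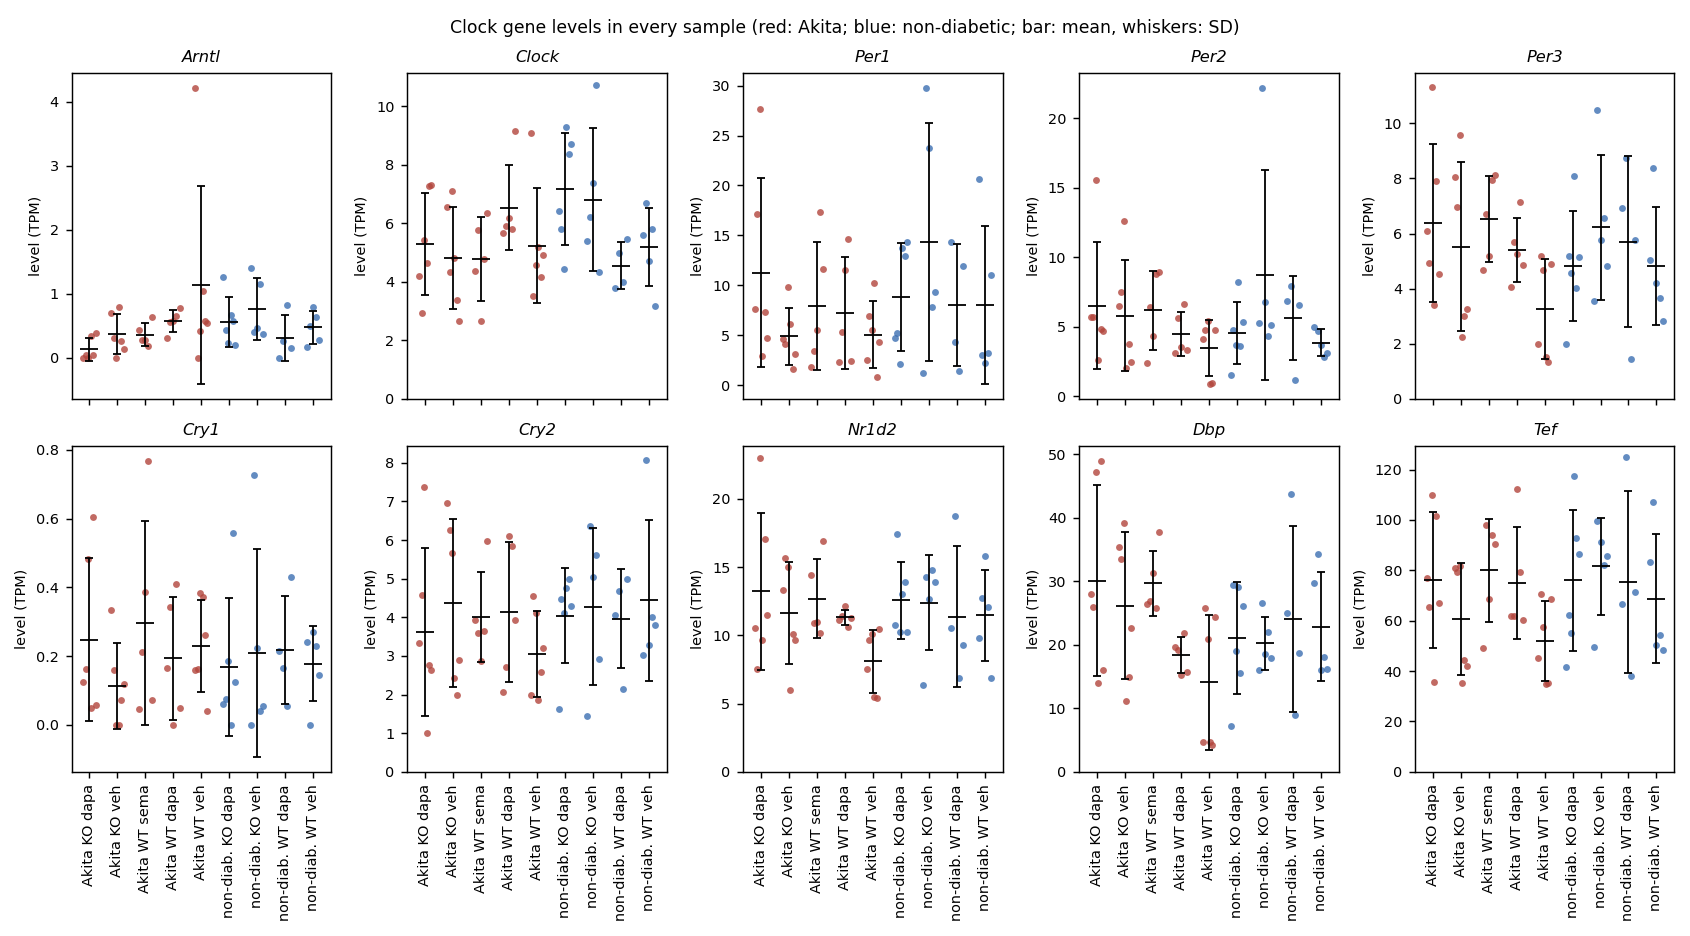
Level of each clock gene in TPM (y axis, linear, a separate scale for each gene) in every sample of the 9 groups (x axis; dapa, dapagliflozin; sema, semaglutide; veh, vehicle; KO, Sglt1-/-; WT, Sglt1+/+). Points are samples, bars are group means and whiskers are SD; the groups overlap for most genes, 3 of the 6 Akita WT vehicle samples lie under 5 TPM for Dbp, and Arntl stays under 2 TPM in all but 1 sample.

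The Per genes, which encode the repressors that appear first in the cycle, lay at similar levels and differed in spread. Medians over 48 samples were 5.56 TPM for Per1 (0.841 to 29.7 TPM), 4.77 TPM for Per2 (0.863 to 22.2 TPM) and 5.09 TPM for Per3 (1.34 to 11.3 TPM). Within groups the SD of Per1 was 1.07 on the log2(TPM + 1) scale, against 0.71 for Per2, 0.56 for Per3 and a median of 0.42 for all tested genes. Per1, which also responds directly to glucocorticoids and cAMP, was thus the most variable of the 9 tested clock genes between samples of the same group. Its non-diabetic knockout vehicle samples ran from 1.21 to 29.7 TPM, nearly the whole range of the series.

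By group, Per1 (chromosome 11, 69095217 to 69109960, plus strand) averaged 11.3 ± 9.43 TPM in Akita knockout dapagliflozin, 4.92 ± 2.84 TPM in Akita knockout vehicle, 7.96 ± 6.41 TPM in Akita wild-type semaglutide, 7.25 ± 5.56 TPM in Akita wild-type dapagliflozin and 5.09 ± 3.32 TPM in Akita wild-type vehicle samples. Non-diabetic samples averaged 8.88 ± 5.41 TPM of Per1 in knockouts with dapagliflozin, 14.4 ± 11.9 TPM in knockouts with vehicle, 8.04 ± 6.10 TPM in wild type with dapagliflozin and 8.06 ± 7.92 TPM in wild type with vehicle. In each of these groups the SD of Per1 was a large part of the mean, and the samples of every group overlapped with those of the others.

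Per2 (chromosome 1, 91415982 to 91459324, minus strand) averaged 6.51 ± 4.57 TPM in Akita knockout dapagliflozin, 5.79 ± 3.98 TPM in Akita knockout vehicle, 6.17 ± 2.83 TPM in Akita wild-type semaglutide, 4.43 ± 1.58 TPM in Akita wild-type dapagliflozin and 3.47 ± 2.03 TPM in Akita wild-type vehicle samples. In non-diabetic samples Per2 averaged 4.52 ± 2.24 TPM in knockouts with dapagliflozin, 8.73 ± 7.56 TPM in knockouts with vehicle, 5.62 ± 3.03 TPM in wild type with dapagliflozin and 3.85 ± 0.959 TPM in wild type with vehicle. The high mean of non-diabetic knockout vehicle samples came with 1 sample at 22.2 TPM, while the others of that group lay between 4.33 and 6.76 TPM.

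Per3 (chromosome 4, 151003652 to 151044665, minus strand) averaged 6.37 ± 2.87 TPM in Akita knockout dapagliflozin, 5.52 ± 3.07 TPM in Akita knockout vehicle, 6.53 ± 1.57 TPM in Akita wild-type semaglutide, 5.4 ± 1.15 TPM in Akita wild-type dapagliflozin and 3.27 ± 1.82 TPM in Akita wild-type vehicle samples. In non-diabetic samples Per3 averaged 4.83 ± 1.98 TPM in knockouts with dapagliflozin, 6.23 ± 2.63 TPM in knockouts with vehicle, 5.71 ± 3.10 TPM in wild type with dapagliflozin and 4.82 ± 2.14 TPM in wild type with vehicle. Akita wild-type vehicle samples had the lowest mean of both Per2 and Per3.

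Of the cryptochromes, the repressors that act with PER, Cry2 was measured and Cry1 was barely detected. Cry1 (chromosome 10, 85131700 to 85185064, minus strand) had a median of 0.161 TPM, was listed at 0 in 6 samples and did not exceed 0.768 TPM. Cry2 (chromosome 2, 92403646 to 92434043, minus strand) had a median of 3.93 TPM (0.994 to 8.08 TPM). Its group means ran from 3.05 ± 1.11 TPM in Akita wild-type vehicle to 4.44 ± 2.07 TPM in non-diabetic wild-type vehicle samples, and group membership took 6.71% of its variance, against a median of 16.8% for all tested genes.

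Nr1d2 (REV-ERB beta, chromosome 14, 18204054 to 18239127, minus strand), the receptor that represses Arntl, had a median of 11 TPM (5.42 to 23.0 TPM). It lay at 14.4, 10.9, 11, 10.2 and 16.9 TPM in Akita wild-type semaglutide samples, at 11.2, 11.4, 12.1, 10.6 and 11.2 TPM in Akita wild-type dapagliflozin samples, and at 7.50, 9.69, 10.1, 5.50, 5.42 and 10.5 TPM in Akita wild-type vehicle samples. As deposited, all 5 dapagliflozin samples lay above all 6 vehicle samples, the nearest at 10.6 and 10.5 TPM. Semaglutide samples overlapped with vehicle samples through 1 sample at 10.2 TPM. Median-of-ratios scaling divided by a library factor, 1.25 for dapagliflozin sample 6 (11.2 TPM) and 0.702 for vehicle sample 2 (9.69 TPM). That places this vehicle sample above this dapagliflozin sample, so the groups overlap after scaling. How many of all tested genes separated these groups was not counted. The means of the other groups lay between 11.4 ± 5.18 TPM in non-diabetic wild-type dapagliflozin and 13.2 ± 5.76 TPM in Akita knockout dapagliflozin samples. When the 9 groups were ordered by their mean for each of the 10 genes, neighbours differed by more than the larger of their SDs in 1 place, between Akita wild-type dapagliflozin (11.3 ± 0.538 TPM) and Akita wild-type vehicle (8.12 ± 2.31 TPM) for Nr1d2.

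The output factors Dbp and Tef were the most abundant of the set. Tef (chromosome 15, 81802421 to 81826863, plus strand) had a median of 68.5 TPM (34.6 to 125 TPM) and Dbp (chromosome 7, 45705088 to 45710203, plus strand) one of 21.9 TPM (4.26 to 49.0 TPM). Dbp had the largest share of its variance between groups among the 9 tested genes, 27.7%, and its highest group mean was 2.13 times the lowest. Tef averaged 76 ± 26.9 TPM in Akita knockout dapagliflozin, 60.6 ± 22.1 TPM in Akita knockout vehicle, 80.0 ± 20.6 TPM in Akita wild-type semaglutide, 75 ± 22.2 TPM in Akita wild-type dapagliflozin and 51.9 ± 16.1 TPM in Akita wild-type vehicle samples. The non-diabetic means of Tef lay between 68.7 ± 25.6 TPM in wild type with vehicle and 81.6 ± 19.1 TPM in knockouts with vehicle.

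Dbp was read sample by sample, since it had the largest share of variance between groups. In Akita wild-type mice, semaglutide samples had 26.4, 26.9, 31.3, 25.8 and 37.8 TPM of Dbp, dapagliflozin samples 19.6, 19.1, 15.2, 21.9 and 15.7 TPM, and vehicle samples 4.64, 25.8, 20.9, 4.68, 4.26 and 24.4 TPM. The vehicle group thus held 3 samples under 5 TPM and 3 above 20 TPM, with none between, and 4 of the 5 dapagliflozin samples lay inside that gap. In Akita knockouts, dapagliflozin samples had 28.0, 25.9, 47.3, 13.9, 49.0 and 16.1 TPM of Dbp, and vehicle samples 35.4, 33.5, 39.2, 11.1, 15 and 22.6 TPM. Non-diabetic samples averaged 21.1 ± 8.82 TPM of Dbp in knockouts with dapagliflozin, 20.2 ± 4.13 TPM in knockouts with vehicle, 24.1 ± 14.7 TPM in wild type with dapagliflozin and 22.8 ± 8.54 TPM in wild type with vehicle. Outside the Akita wild-type vehicle group the lowest Dbp value of any sample was 7.16 TPM.

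The same 3 Akita wild-type vehicle samples (1, 4 and 5) were low for some other genes of the set. Per3 lay at 1.99, 1.53 and 1.34 TPM in samples 1, 4 and 5, and at 5.17, 4.68 and 4.90 TPM in samples 2, 3 and 6 of the group. Tef lay at 45.1, 34.6 and 35.1 TPM in samples 1, 4 and 5, and at 70.7, 57.5 and 68.6 TPM in samples 2, 3 and 6. Npas2, the partner that can replace CLOCK, went the other way, with 20.4, 10.8 and 8.0 TPM in samples 1, 4 and 5, and 0.0576, 1.94 and 2.77 TPM in samples 2, 3 and 6. Per1 did not follow this split, with 2.55, 10.2 and 0.841 TPM in samples 1, 4 and 5, and 6.95, 5.59 and 4.38 TPM in samples 2, 3 and 6. Per2 followed it only in part. Its log2(TPM + 1) deviations from the group mean were 0.36, -1.09 and -1.03 in samples 1, 4 and 5. In samples 2, 3 and 6 they were 0.53, 0.69 and 0.54. Clock did not follow the split and was highest in sample 1, with a deviation of 0.74. Genes detected ran from 8624 to 10845 over this group, and 2 of its libraries had fewer than 9000 genes.

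Whether diabetes, Sglt1 deletion or either drug altered the clock genes was tested with limma over all 12742 genes, in 17 comparisons. In none of them did a clock gene pass an adjusted p of 0.05. Of 144 log2 changes, 11 had an unadjusted p under 0.05, and the lowest adjusted p of the 144 was 0.257. A test for any difference among the 9 groups called 0 of the 9 clock genes, 0 of them at an unadjusted p under 0.05, while 0.0706% of all genes were called and 7.31% had such a p. All log2 changes below are on the log2(TPM + 1) scale, which understates those of low genes such as Arntl, with the SE of the model. Counts of samples in the direction of a change are taken against the median log2 value of the other group. The comparisons of semaglutide, dapagliflozin and Sglt1 deletion in Akita mice and that of diabetes share the Akita wild-type vehicle samples, so their values are not independent.

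With semaglutide, 7 of 9 clock genes were higher in Akita wild-type tubules than with vehicle, and 0 were called, as were 0% of all genes. Unadjusted p-values were under 0.05 for 4 of the 9, against 5.82% of all tested genes, and the median log2 change was 0.60 for the clock genes and 0.13 for all genes. Dbp was higher by 1.38 ± 0.40 (adjusted p = 0.777, in 5 of 5 samples), Per3 by 0.91 ± 0.33 (adjusted p = 0.823, 5 of 5), Tef by 0.63 ± 0.29 (adjusted p = 0.845, 4 of 5) and Nr1d2 by 0.60 ± 0.25 (adjusted p = 0.845, 5 of 5). The lowest semaglutide sample and the highest vehicle sample both lay at 25.8 TPM of Dbp. Per3 had 4.66, 6.73, 5.18, 7.94 and 8.13 TPM and Tef 49.3, 97.8, 68.5, 93.9 and 90.3 TPM in semaglutide samples, and both overlapped with the upper 3 vehicle samples given above. The 2 lower genes were those of the activating pair, Arntl and Clock, at -0.44 and -0.10. After median-of-ratios scaling the 4 differences were 1.20, 0.76, 0.43 and 0.42, the count of higher and lower genes was unchanged, and 3 of 9 had an unadjusted p under 0.05. Leaving out single libraries moved the Dbp value between 1.15 and 1.62. Single omissions cannot show how far it rests on the 3 vehicle samples under 5 TPM together, and their joint omission was not run.

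All semaglutide samples had numbers from 88 to 99 in their titles, while the numbers of the Akita wild-type vehicle group ran from 1 to 82. Anything that followed the title number and semaglutide itself therefore cannot be told apart by comparing these groups. Across all 48 samples with group means removed, none of the 10 clock genes was related to the title number at an adjusted p under 0.05, and r lay between -0.10 for Arntl and 0.33 for Per1. With the title number as a covariate the semaglutide changes were 1.29 for Dbp, 0.85 for Per3, 0.44 for Tef and 0.52 for Nr1d2, and only Dbp and Per3, 2 of the 9 genes, had an unadjusted p under 0.05, each with an adjusted p of 1 by limma. Semaglutide samples had 9329 to 10864 genes detected, against 8624 to 10845 in vehicle samples. The 5 late proximal tubule markers summed to 36.6 to 104 TPM (median 78.5 TPM) in semaglutide samples, against 25.9 to 68.6 TPM (median 33.5 TPM) in vehicle samples, and the 5 thick ascending limb markers to 11.9 to 88.5 TPM (median 58.8 TPM), against 10.3 to 103 TPM (median 25.9 TPM). None of these 10 markers was at 0 throughout either group, and their part in the clock gene values was not tested.

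With dapagliflozin, 8 of 9 clock genes were higher in Akita wild-type tubules than with vehicle, Arntl being the exception, and 0 were called, as were 0% of all genes. The median log2 change was 0.41 for the clock genes and 0.19 for all genes. Per3, at 4.06, 5.70, 5.25, 7.15 and 4.86 TPM with dapagliflozin, was the gene with an unadjusted p under 0.05, a share of 1 in 9 against 10.1% of all genes. Its log2 change was 0.69 ± 0.33 (adjusted p = 0.476, 5 of 5 samples) and was 0.46 after median-of-ratios scaling. Nr1d2, whose groups did not overlap in TPM as deposited but did after scaling, had a log2 change of 0.47 ± 0.25 (adjusted p = 0.527).

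In Akita knockouts, where both glucose transporters were then blocked or absent, 7 of 9 clock genes were higher with dapagliflozin than with vehicle before scaling and 3 of 9 after median-of-ratios scaling. None was called or had an unadjusted p under 0.05, against 0% and 7.59% of all genes. Averaged over both Akita genotypes, Per3 was higher by 0.46 ± 0.23 (adjusted p = 0.277, 9 of 11 samples) and Tef by 0.43 ± 0.20 (adjusted p = 0.261, 10 of 11 samples), and 0 clock genes were called, against 0.816% of all genes. After median-of-ratios scaling these values were 0.25 and 0.17, and the scaling moved the median of all genes to -0.01 where it had been 0.17. The unadjusted count, 2 of 9, stood against 17.5% of all genes.

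In non-diabetic tubules no clock gene passed the test of dapagliflozin against vehicle. Log2 changes lay between -0.20 for Per2 and -0.0018 for Nr1d2 when both genotypes were averaged, with 0 genes called or at an unadjusted p under 0.05, against 0% and 3.69% of all genes. All 9 were lower before scaling and 4 of 9 after it. In wild type alone 0 clock genes were called or had an unadjusted p under 0.05, against 0% and 4.05% of all genes, and in knockouts alone 0, against 0.00785% and 3.88%. The genotypes differed in sign for some genes, with Per2 at -0.68 ± 0.41 in knockouts and 0.28 ± 0.46 in wild type, and Per1 at -0.37 ± 0.64 in knockouts and 0.08 ± 0.71 in wild type, and the difference between genotypes was not tested. The interaction of dapagliflozin with diabetes, which tests whether the drug's effect differed between Akita and non-diabetic mice, called 0 clock genes and 0% of all genes, and 0 of 9 clock genes had an unadjusted p under 0.05, against 14.7% of all genes.

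**Figure D2:**
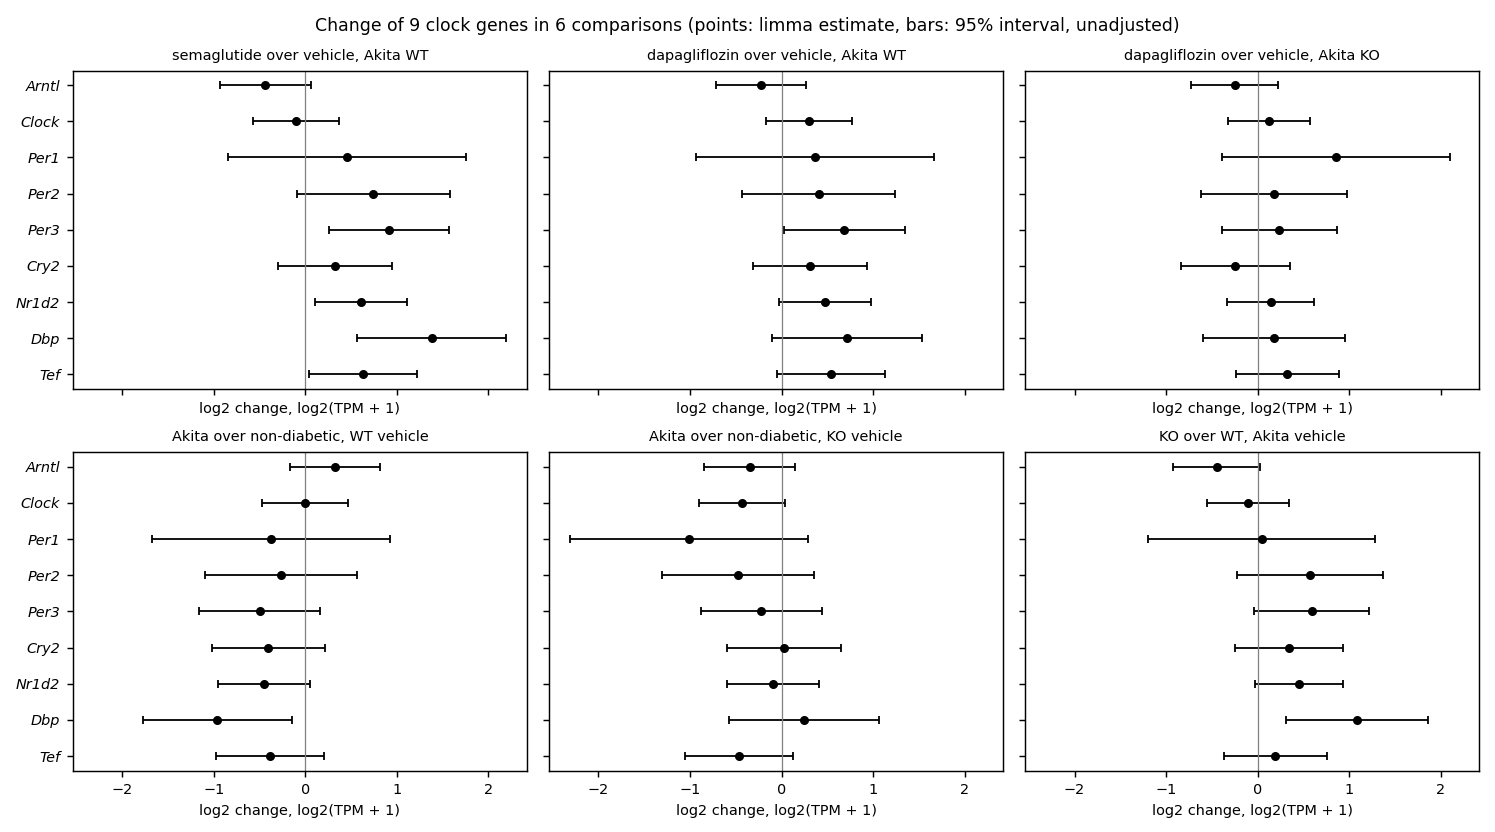
Log2 change of 9 clock genes (x axis, on the log2(TPM + 1) scale; y axis, genes ordered by their role) in 6 comparisons. Points are limma estimates and bars their 95% intervals, not adjusted for the number of genes; Dbp lies at 1.38 with semaglutide, at -0.96 in Akita against non-diabetic wild type and at 1.09 in Akita knockouts against Akita wild type, all 3 of which use the Akita wild-type vehicle samples.

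In wild-type vehicle tubules, 8 of 9 clock genes were lower in Akita than in non-diabetic mice, with 0 called against 0.0235% of all genes. Dbp was the 1 gene with an unadjusted p under 0.05, against 7.60% of all genes, with a log2 change of -0.96 ± 0.40 (adjusted p = 0.558). Its 6 Akita values are given above, and the 5 non-diabetic samples had 29.8, 34.2, 16.1, 18 and 16.1 TPM of Dbp. Only 3 of 6 Akita samples lay below the non-diabetic median, and the ranges overlapped. Arntl was the gene higher in Akita, by 0.32, and the median log2 change was -0.38 for the clock genes and -0.15 for all genes. After median-of-ratios scaling 7 of 9 were lower and Dbp stood at -0.75 (adjusted p = 0.577).

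In knockouts the diabetes difference of Dbp had the other sign, 0.24 ± 0.40 (adjusted p = 0.783), and 7 of 9 clock genes were lower in Akita before scaling and 5 of 9 after it. None was called or had an unadjusted p under 0.05, against 0% and 14.4% of all genes. Averaged over genotypes all 9 clock genes were lower in Akita before scaling and 6 of 9 after it, with 0 called against 0.557% of all genes. Tef was the 1 gene with an unadjusted p under 0.05, against 18.5% of all genes, at -0.43 ± 0.21 (adjusted p = 0.257, 9 of 12 samples), and at -0.14 after median-of-ratios scaling, which moved the median of all genes to -0.0030 where it had been -0.20.

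Sglt1 deletion was compared within vehicle mice, and also over all backgrounds that held both genotypes. In Akita mice Dbp was higher in knockouts by 1.09 ± 0.38 (adjusted p = 1, 6 of 6 samples), with ranges of 11.1 to 39.2 TPM in knockouts and 4.26 to 25.8 TPM in wild type that overlapped. This difference was 1.08 after median-of-ratios scaling. In this comparison 0 of 9 clock genes were called, against 0.0157% of all genes, and 1 had an unadjusted p under 0.05, against 1.95%. In non-diabetic mice Dbp had a log2 change of -0.12 ± 0.42 (adjusted p = 0.994), and 0 clock genes were called or had an unadjusted p under 0.05, against 0.0235% and 4.61% of all genes. The difference between these effects, tested as the interaction of diabetes with Sglt1 deletion, was 1.20 ± 0.57 for Dbp (adjusted p = 1), with 0 of 9 clock genes called against 0% of all genes and 1 at an unadjusted p under 0.05 against 3.19%. Over 4 backgrounds, the non-diabetic and the Akita mice with vehicle and with dapagliflozin, the knockout changes of the 9 genes lay between -0.11 for Arntl and 0.38 for Per2, with 0 called or at an unadjusted p under 0.05, against 0.0235% and 4.91% of all genes. Semaglutide set against dapagliflozin in Akita wild-type mice gave 0 clock genes called or at an unadjusted p under 0.05, against 0% and 2.61% of all genes, with Dbp at 0.66 ± 0.42 (adjusted p = 1, 5 of 5 samples). As deposited, the Dbp samples of these groups (5 samples each) did not overlap. They lay at 25.8 to 37.8 TPM under semaglutide and at 15.2 to 21.9 TPM under dapagliflozin. The factors of median-of-ratios scaling were 1.13 for semaglutide sample 5, the lowest of its group at 25.8 TPM, and 0.845 for dapagliflozin sample 1. Division by them places this dapagliflozin sample above this semaglutide sample for Dbp, so the groups overlap after scaling. The number of all tested genes that separated these groups was not counted. The title numbers of semaglutide and dapagliflozin samples did not overlap, at 88 to 99 and 4 to 78. Drug and anything that followed the title number thus cannot be told apart here.

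Genes differed between samples of one group more than between groups, so their joint variation within groups was measured. Each group mean was subtracted from log2(TPM + 1), and all 45 pairs of the 10 genes were correlated over 48 samples, with 100000 permutations within groups and adjustment over the 45 pairs. Of the 45 pairs, 36 were positive and 9 negative, and 29 had an adjusted p under 0.05, 24 positive and 5 negative. By rank correlation as well as by Pearson's r, 25 pairs passed. The samples share library quality as well as biology, and the median r of a clock gene with all tested genes was itself positive, from 0.07 for Cry1 to 0.40 for Clock. The 95th percentile ran from 0.29 for Cry1 to 0.67 for Clock, and the permutation p does not take this shared background into account. Among pairs that passed, Clock and Tef had r = 0.38, below the median of Clock. Per2 and Nr1d2, at 0.56, lay under the 95th percentile of Per2, 0.57. Per3 and Dbp, at 0.89, lay above that of Per3, 0.63. How many passing pairs lay within the background was not counted.

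The strongest relations joined the Per genes with the output factors. Per3 and Dbp had r = 0.89 and rho = 0.88 (permutation p = 1e-05, the smallest 100000 permutations can give, adjusted p = 4.5e-05), and r = 0.87 without the 2 samples farthest from the median. Per2 and Per3 had r = 0.89, Per3 and Tef 0.87, Per3 and Cry2 0.78, Dbp and Tef 0.77, Per2 and Dbp 0.73, and Per3 and Nr1d2 0.72. Among the tested genes, predicted genes and pseudogenes left out, the gene most like Dbp was Per3, followed by Tef and Cpeb3 (r = 0.75), and the 3 genes most like Per3 were Dbp, Per2 and Tef. Tef was most like Per3, Usp2 (r = 0.85), which encodes a ubiquitin protease with a rhythmic transcript, and Ciart (r = 0.84), which encodes a repressor of ARNTL and CLOCK. Per2 was most like Per3 and then G0s2 (r = 0.83).

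Arntl went against these genes. Arntl and Dbp had r = -0.57 and rho = -0.50 (permutation p = 0.00047 and 0.00172, adjusted p = 0.00122 and 0.00387), and r = -0.49 without the 2 samples farthest from the median. Of the same genes, Dbp had the lowest r with Arntl, followed by Ciart (-0.52) and Nfkbia (-0.45), and Arntl had the lowest r with Dbp, followed by Npas2 (-0.49) and Dtx4 (-0.45). Without the whole Akita wild-type vehicle group, which holds the sample at 4.21 TPM of Arntl, r of Arntl and Dbp was -0.51 (permutation p = 0.00354). The other negative pairs that passed were Arntl with Per3 (-0.44), Per1 (-0.37), Tef (-0.37) and Cry2 (-0.34). By rank Arntl with Tef (rho = -0.33, adjusted p = 0.0537 by permutation) and with Cry2 (rho = -0.24, adjusted p = 0.158) did not pass. Each of these 4 missed the adjusted threshold without non-diabetic wild-type dapagliflozin sample 5, where r was -0.38, -0.33, -0.32 and -0.30. The last 3 also missed it without non-diabetic knockout vehicle sample 1, Tef and Cry2 without non-diabetic knockout dapagliflozin sample 1, and Cry2 without Akita wild-type vehicle sample 1 or 2. Arntl and Per2, at r = -0.33 with an adjusted p of 0.0844 by permutation, came to -0.52 (adjusted p = 0.00334) without Akita wild-type vehicle sample 1.

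**Figure D3:**
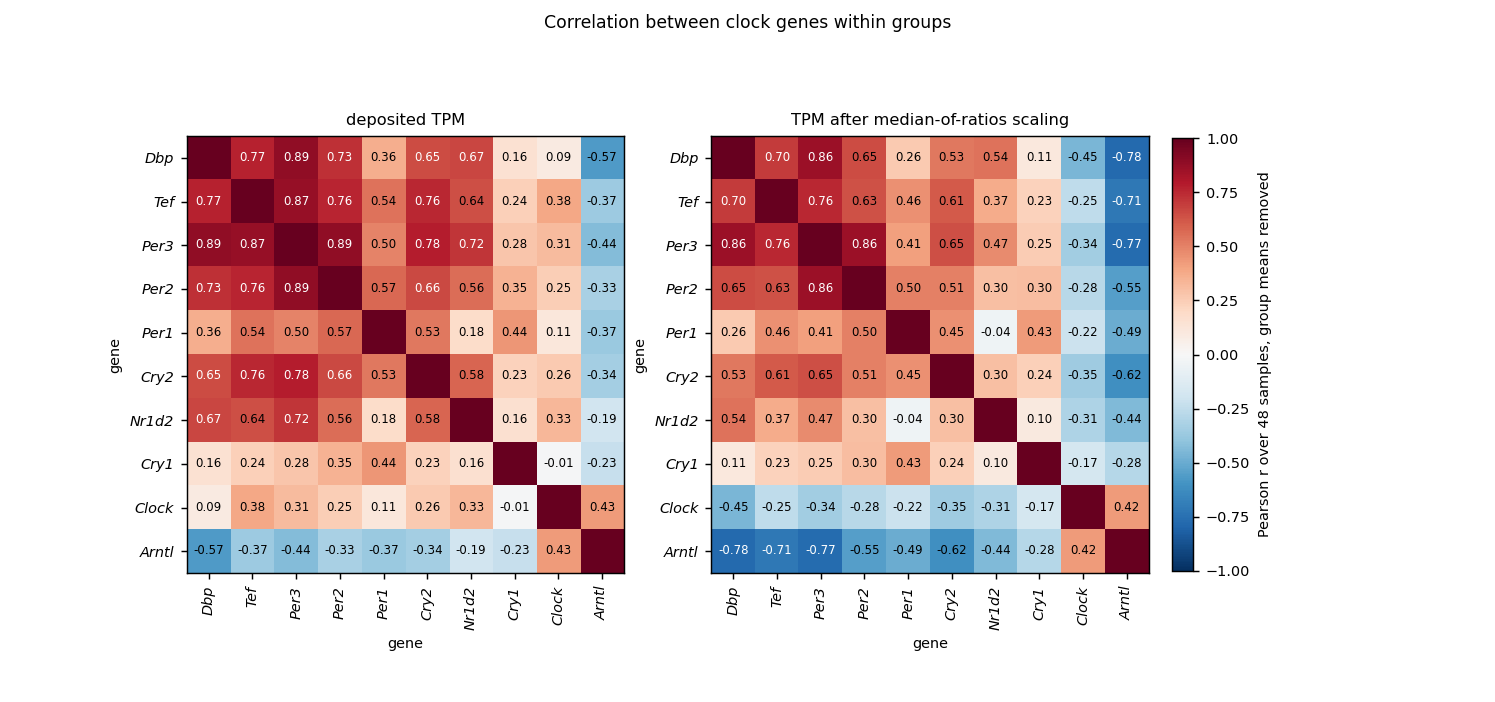
Pearson r between the 10 clock genes over 48 samples after group means were removed (colour and number in each cell, both axes list genes), for TPM as deposited (left) and after median-of-ratios scaling (right). Dbp, Tef, Per3, Per2, Per1, Cry2 and Nr1d2 form a positive block in the left panel, Arntl is negative to that block in both panels, and Clock turns negative to it in the right panel.

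The negative relations of Arntl were stronger after the libraries were rescaled. After median-of-ratios scaling, Arntl had r = -0.78 with Dbp, -0.77 with Per3, -0.71 with Tef, -0.62 with Cry2 and -0.44 with Nr1d2, all at an adjusted p under 0.05 by permutation. The r of clock genes with all tested genes was not computed after scaling, so these values have no such background beside them. What the scaling itself adds for a gene as low as Arntl was not tested. Clock, at r = 0.09 with Dbp and 0.31 with Per3 in TPM, had r = -0.45 with Dbp (adjusted p = 0.00329) and -0.34 with Per3 (adjusted p = 0.0285) after scaling. The direction of Clock's relations to the other clock genes thus depended on the scaling. Over the 45 pairs, 28 were positive and 17 negative after scaling, with 19 and 9 at an adjusted p under 0.05. Per3 and Dbp stayed at 0.86.

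Arntl and Clock themselves had r = 0.43 (rho = 0.32, adjusted p = 0.0164 and 0.0562), and 0.42 after scaling. This pair rested on Akita wild-type vehicle sample 1, without which r was 0.28 (adjusted p = 0.111 by permutation). That sample held the highest Arntl of all 48 and 9.08 TPM of Clock, against 3.51 to 5.18 TPM in the other samples of its group. Among the tested genes, those most like Arntl were Dtx4 (r = 0.76), Nol4l (0.68) and Npas2 (0.63). Nfil3, at r = 0.71 with Arntl, was not among the tested genes and was not ranked. The tested genes most like Clock were Tomm70a (0.85), Usp34 (0.83) and Btaf1 (0.83).

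**Figure D4:**
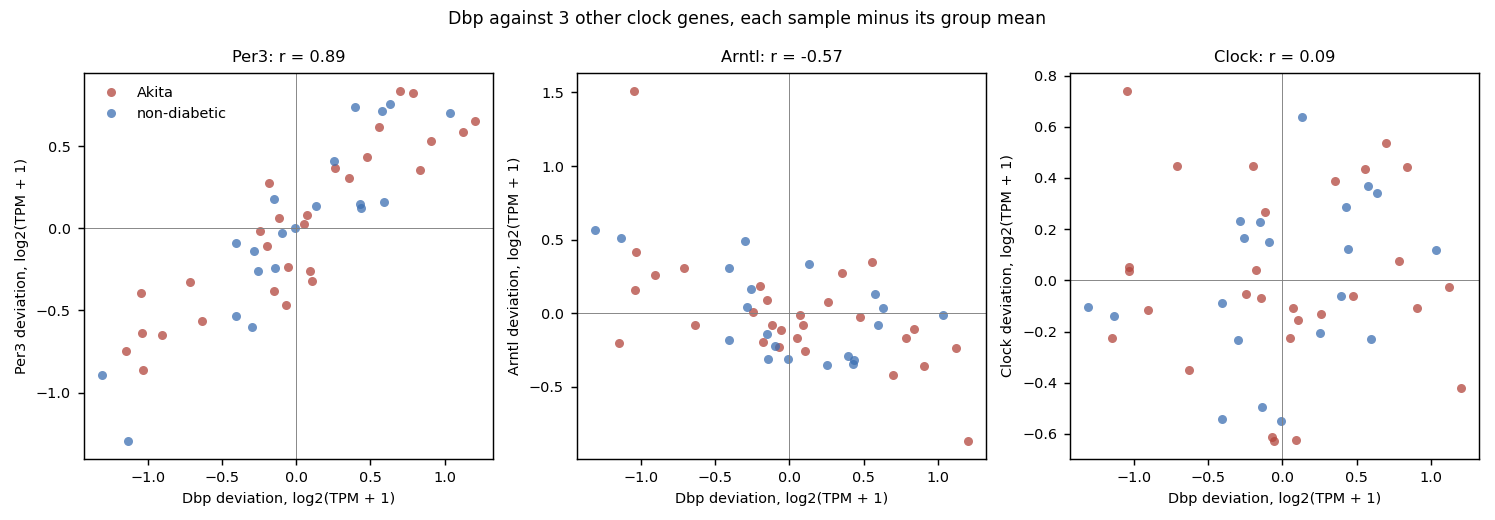
Deviation of each sample from its group mean for Dbp (x axis) against Per3, Arntl and Clock (y axes), all on the log2(TPM + 1) scale, 48 samples coloured by diabetes. The correlation with Dbp was r = 0.89 for Per3, r = -0.57 for Arntl, where 1 Akita sample lay far above the others, and r = 0.09 for Clock.

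The links of Per1 to the other clock genes were uneven. Per1 had r = 0.57 with Per2, 0.54 with Tef, 0.53 with Cry2 and 0.50 with Per3, each of which passed the adjusted threshold. It had r = 0.36 with Dbp, which missed the adjusted threshold without non-diabetic wild-type dapagliflozin sample 5 (0.31, adjusted p = 0.0556 by permutation), and 0.18 with Nr1d2, and the genes most like it were Plk3 (0.82), Foxo3 (0.80) and Zfp36 (0.75), of which Zfp36 encodes an RNA-binding protein induced early by many stimuli. Cry1, at its low level, was most like Nedd9 (0.56), Pck1 (0.55), the gluconeogenic enzyme, and Metrnl (0.52). Cry2 was most like Mdm4 (0.81) and then Per3. Nr1d2 was most like Fam120b (0.77), Slc10a5 (0.76) and Cpsf4 (0.75).

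Library quality moved with several of the clock genes. Of 30 relations of the 10 genes to the title number, the number of genes detected and the nuclear protein-coding share, 14 had an adjusted p under 0.05 by permutation. Clock had r = 0.76 with the protein-coding share and 0.71 with genes detected, Tef 0.67 and 0.63, Per3 0.64 and 0.63, Nr1d2 0.61 and 0.63, Cry2 0.55 and 0.60, Per2 0.52 and 0.53, and Dbp 0.46 and 0.42. Arntl, with 0.17 and 0.24, was not among the relations that passed. The part of library quality in the relations between genes was not tested beyond the rescaling given above.

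Other genes of the loop, 13 in all of which 11 were tested, were set beside the 10. Within groups, Hlf, the third D-box activator, had r = 0.76 with Tef, 0.72 with Per3 and 0.60 with Dbp, and Ciart had 0.84 with Tef, 0.80 with Per3 and 0.75 with Dbp. Npas2 and Nfil3 had r = 0.63 and 0.71 with Arntl, and -0.49 and -0.39 with Dbp. Nfil3 did not pass the filter on low values and was not tested. Akita wild-type vehicle sample 1 held the highest values of its group for both, 20.4 TPM of Npas2 and 3.29 TPM of Nfil3. Its log2(TPM + 1) deviations from the group mean were 1.51 for Arntl, 1.97 for Npas2 and 1.37 for Nfil3. These r values thus lean on that sample, and r without it was not computed. Nr1d1, the close relative of Nr1d2, had r = 0.54 with Nr1d2 and 0.41 with Dbp, and 0.30 and 0.21 after median-of-ratios scaling. Rora, which activates Arntl through ROR elements, had r = 0.70 with Per3 and 0.68 with Nr1d2, and 0.39 and 0.31 after scaling.

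**Figure D5:**
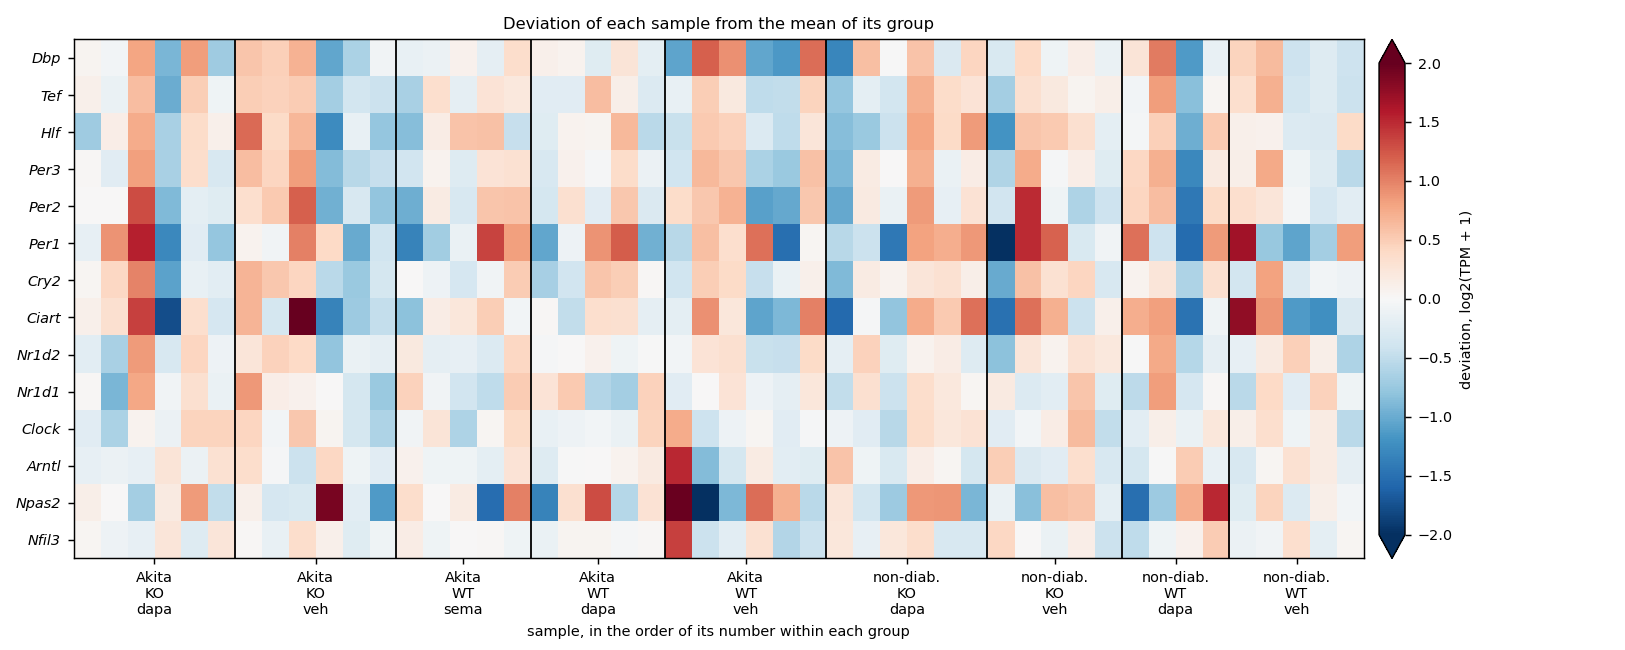
Deviation of each of 48 samples (columns, grouped) from the mean of its group, on the log2(TPM + 1) scale (colour, saturated at the ends of its scale), for 9 of the clock genes and 5 further loop genes (rows). In Akita WT vehicle samples the upper rows from Dbp to Per3 are blue in columns 1, 4 and 5 where the Npas2 row is red, and red in columns 2, 3 and 6.

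Across conditions Hlf had an unadjusted p under 0.05 in 7 of the 17 comparisons and was called in none. It averaged 18.6 ± 7.42 TPM with dapagliflozin and 10.8 ± 6.73 TPM with vehicle in Akita knockouts, and 16.3 ± 6.97 TPM with semaglutide, 15.8 ± 5.36 TPM with dapagliflozin and 8.95 ± 3.14 TPM with vehicle in Akita wild type. Non-diabetic vehicle samples had 19.6 ± 8.19 TPM of Hlf in knockouts and 13.6 ± 2.89 TPM in wild type. Its log2 change was 0.81 ± 0.25 for dapagliflozin over both Akita genotypes (adjusted p = 0.0959, 11 of 11 samples), 0.75 ± 0.37 for semaglutide (adjusted p = 0.845, 4 of 5) and -0.74 ± 0.26 for diabetes over both genotypes (adjusted p = 0.139, 12 of 12). Leaving out Akita knockout vehicle sample 1 brought the dapagliflozin comparison of Hlf to 0.92 (adjusted p = 0.0436), and leaving out non-diabetic knockout vehicle sample 1 brought its diabetes comparison to -0.89 (adjusted p = 0.0491). Other single omissions raised the adjusted p by limma to as much as 0.213 and 0.282. Over all alternatives run, the dapagliflozin value lay between 0.55 and 0.92, and its adjusted p by limma reached 0.838. The diabetes value lay between -0.89 and -0.48, and its adjusted p by limma reached 0.959.

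With semaglutide, Rora (0.54 ± 0.24, adjusted p = 0.845, 5 of 5 samples) also had an unadjusted p under 0.05, and 0 of the 11 tested loop genes were called. Of the loop genes 7 of 11 were higher with semaglutide, with a median log2 change of 0.07, below the 0.13 of all genes. Npas2 had a log2 change of -1.27 ± 0.55 in Akita knockouts against Akita wild type with vehicle (adjusted p = 1, 5 of 6 samples) and of -0.68 ± 0.30 over 4 backgrounds (adjusted p = 0.921, 17 of 23).

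Of 20 kinases, phosphatases, ubiquitin ligases and other regulators of clock proteins, 19 were tested, and 1 was called in 1 of the 17 comparisons. Fbxl21, which encodes a ligase subunit for cryptochromes, rose with dapagliflozin over both Akita genotypes, by 0.67 ± 0.15 (adjusted p = 0.0251, 11 of 11 samples). It averaged 1.26 ± 0.635 TPM with dapagliflozin and 0.539 ± 0.311 TPM with vehicle in Akita knockouts, and 1.74 ± 0.304 TPM with dapagliflozin and 0.596 ± 0.378 TPM with vehicle in Akita wild type. The call was lost after median-of-ratios scaling (0.55, adjusted p = 0.0532), after rescaling to nuclear protein-coding genes (adjusted p = 0.0586), with no filter (adjusted p = 0.0513), with only the groups compared (adjusted p = 0.0533), and without the 4 libraries of fewer than 9000 genes (adjusted p = 0.228). It was also lost without any 1 of Akita knockout dapagliflozin sample 5, Akita knockout vehicle samples 5 and 6, Akita wild-type dapagliflozin sample 4 and Akita wild-type vehicle sample 5, with the adjusted p up to 0.0647. Of the 19, all 19 were higher in this comparison, with a median of 0.26 against 0.17 for all genes, and 18 of 19 were lower in Akita over both genotypes, with a median of -0.24 against -0.20.

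Of 14 genes of feeding and fasting, all tested, Pck1 was the 1 called in that comparison, where it rose by 0.89 ± 0.22 (adjusted p = 0.041, 11 of 11 samples). Pck1, which encodes the gluconeogenic enzyme PEPCK, averaged 565 ± 236 TPM with dapagliflozin and 285 ± 107 TPM with vehicle in Akita knockouts, and 470 ± 119 TPM with dapagliflozin and 274 ± 94.1 TPM with vehicle in Akita wild type. Its call was lost under 7 of 9 alternatives, among them median-of-ratios scaling (0.63, adjusted p = 0.167) and the fit without the 4 libraries of fewer than 9000 genes (0.70, adjusted p = 0.692). It was also lost without any 1 of Akita knockout dapagliflozin samples 1, 3, 5 and 6, Akita knockout vehicle samples 4, 5 and 6, Akita wild-type dapagliflozin samples 2, 4, 5 and 6 and Akita wild-type vehicle samples 2, 4, 5 and 6, with the adjusted p up to 0.107.

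Among the clock output genes, Nampt, which encodes the rate-limiting enzyme of NAD salvage, was the listed gene with the lowest unadjusted p for semaglutide. Its log2 change was 0.96 ± 0.26 for semaglutide (adjusted p = 0.679, 5 of 5 samples), 0.61 ± 0.18 for dapagliflozin over both Akita genotypes (adjusted p = 0.073, 10 of 11), 0.51 ± 0.24 for Sglt1 deletion in Akita vehicle mice (adjusted p = 1, 5 of 6) and -0.53 ± 0.18 for diabetes over both genotypes (adjusted p = 0.133, 11 of 12). Por, which encodes the reductase that feeds cytochrome P450 enzymes, had 0.51 ± 0.17 for dapagliflozin over both Akita genotypes (adjusted p = 0.126, 11 of 11) and -0.48 ± 0.18 for diabetes (adjusted p = 0.151, 10 of 12). None of these was called.

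Ppara and Cpt1a, of the feeding list and known for fatty acid oxidation, stood at 0.77 ± 0.31 (adjusted p = 0.845, 5 of 5 samples) and 0.64 ± 0.25 (adjusted p = 0.836, 5 of 5) for semaglutide. Over both Akita genotypes dapagliflozin gave 0.55 ± 0.22 for Ppara (adjusted p = 0.182, 8 of 11) and 0.56 ± 0.17 for Cpt1a (adjusted p = 0.0867, 10 of 11). For diabetes Ppara stood at -0.76 ± 0.22 (adjusted p = 0.0773, 11 of 12).

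Of the renal transport genes described as clock-controlled, 17 of 19 were tested, and Slc5a1, the deleted gene, was the 1 called, in the comparisons of Sglt1 deletion and among the 9 groups. Atp1b1, a subunit of the sodium pump, had a log2 change of 0.45 ± 0.15 (adjusted p = 0.111, 10 of 11 samples) for dapagliflozin over both Akita genotypes, and Slc22a6, an organic anion transporter, 0.52 ± 0.16 (adjusted p = 0.0811, 10 of 11). The medians of the list were 0.27 for dapagliflozin over both Akita genotypes, against 0.17 for all genes, and -0.18 for diabetes, against -0.20.

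Of the glucocorticoid response genes, 13 were tested, Per1 among them, and 0 were called in any comparison. For diabetes over both genotypes 13 of 13 were lower, 8 of them at an unadjusted p under 0.05 against 18.5% of all genes, with a median log2 change of -0.53 against -0.20 for all genes. Fkbp5, a chaperone induced by glucocorticoids, stood at -0.87 ± 0.24 (adjusted p = 0.0692, 11 of 12 samples), Zbtb16 at -0.75 ± 0.24 (adjusted p = 0.109, 10 of 12) and Errfi1 at -0.61 ± 0.20 (adjusted p = 0.113, 12 of 12). These values and the counts of the list were not followed under the alternatives. In this comparison median-of-ratios scaling moved the median of all genes from -0.20 to -0.0030. The 11 tested cAMP and immediate early genes, which hold Per1 and Per2, had 0 called in any comparison. For diabetes over both genotypes 11 of 11 were lower, with a median of -0.37 against -0.20 for all genes. Of the 11, 3 had an unadjusted p under 0.05, against 18.5% of all genes, and 0 were called, against 0.557%. The count of lower genes in this list was not taken after scaling.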

How the data were processed

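Values are length-corrected transcript abundances (TPM) per gene as deposited by the authors for 48 of 54 labelled samples, and every library sums to the same total with ribosomal and mitochondrial RNA included. Per the submitters' processing notes, Salmon, MultiQC 1.8 and build GRCm38 were used. Per the deposited table's name, outlier samples were taken out beforehand; the criterion is not given in the sources used here, and 6 samples were not analysed here. Stranded total RNA libraries were made from pico inputs, per the labels' protocols, so the low RNA input limits precision, and sequencing depth is unknown because TPM keeps none.

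Groups followed the labels. Genes with at least 1 TPM in at least 5 samples were tested on log2(TPM + 1) with limma 3.58.1 (R 4.3.3, statmod 1.5.0; trended and robust variances, 9 group means, 39 residual degrees of freedom), two-sided, with Benjamini-Hochberg adjustment over 12742 genes and calls at an adjusted p under 0.05. Correlations were computed in Python 3.11.15 (numpy 2.4.6, pandas 2.3.3, scipy 1.17.1) with 100000 two-sided permutations of samples within groups. Median-of-ratios factors came from 10423 genes. The limma and correlation steps were tested on simulated data. Alternatives were a pseudocount of 0.1, no filter and a stricter one, median-of-ratios scaling, rescaling to nuclear protein-coding genes, the number in the sample title or the number of genes detected as a covariate, fits of only the groups compared, omission of libraries with fewer than 9000 genes, and omission of each library. For the correlations, omission of each group and each library, removal of the title number, and for the library measures ranks and the other pseudocount, were chosen after seeing the data.

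A log2 change is printed for a clock gene or a gene of a pathway list where its unadjusted p was under 0.05, for at most 10 listed genes a comparison; some genes these rules select are not reported here. Values printed for a clock gene that missed this were chosen after they were seen. Likeness to a clock gene was ranked among the tested genes by Pearson's r over 48 samples, leaving out predicted genes, clones, pseudogenes and mitochondrial genes. The clock genes and pathway lists were chosen with earlier results of these data known. Group values are means ± SD, and log2 changes are ± SE.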

Additional observations from a re-analysis of the deposited data

Results flagged for a closer look

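For each clock gene and group, the highest and the lowest sample were compared with their nearest neighbour relative to the range of the group (Dixon's test at the 95% level), which chance meets in about 1 in 20 groups. Of 90 combinations of gene and group, 9 held such a sample, 7 with a high and 2 with a low value. Per2 stood at 15.5 TPM in Akita knockout dapagliflozin sample 3, and at 22.2 TPM in non-diabetic knockout vehicle sample 2. Arntl stood at 4.21 TPM and Clock at 9.08 TPM in the same library, Akita wild-type vehicle sample 1. Clock also stood at 9.15 TPM in Akita wild-type dapagliflozin sample 6. Cry1 stood at 0.558 TPM in non-diabetic knockout dapagliflozin sample 5. Cry2 stood at 1.63 TPM in non-diabetic knockout dapagliflozin sample 1, below the others of its group, and at 8.08 TPM in non-diabetic wild-type vehicle sample 3, above them. Nr1d2 stood at 6.35 TPM in non-diabetic knockout vehicle sample 1, below the others of its group.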

How the results depend on the processing

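No clock gene was called by limma under any alternative, and the 11 log2 changes of clock genes with an unadjusted p under 0.05 kept their direction under every alternative run. Smaller changes did not all do so: for dapagliflozin over both non-diabetic genotypes 9 of 9 genes were lower as deposited, and 5 were higher and 4 lower after median-of-ratios scaling. The count of 29 related pairs of clock genes stayed between 23 and 31. Correlations with Clock depended on the scaling. After median-of-ratios scaling r with Clock was -0.22 for Per1, -0.28 for Per2, -0.34 for Per3, -0.35 for Cry2, -0.45 for Dbp, -0.25 for Tef and -0.31 for Nr1d2. After rescaling to nuclear protein-coding genes these were -0.21, -0.24, -0.30, -0.27, -0.44, -0.23 and -0.25 in the same order. Per1 and Nr1d2 came to -0.044 and -0.027 under these scalings. Cry1 and Clock, at r = -0.0092, came to 0.0037 with the title number removed, to 0.0044, 0.0431, 0.0271 and 0.0062 without Akita wild-type vehicle, Akita wild-type semaglutide, Akita wild-type dapagliflozin and non-diabetic wild-type vehicle samples, and to between -0.0756 and 0.0379 without single libraries. The cause of these shifts was not tested. Among pathway genes with a printed log2 change, only Hlf, Npas2, Rora, Fbxl21 and Pck1 were followed under the alternatives.

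The number of all genes called for dapagliflozin over both Akita genotypes, 104, lay between 0 and 150 under the alternatives and between 9 and 378 without single libraries. That for diabetes over both genotypes, 71, lay between 4 and 91, and between 11 and 313. No paired analysis was possible because the labels give no replicate numbers and do not tie samples to animals. Depth is unknown, which limits what can be said of Arntl and Cry1 at their low levels.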
